A study of Mus musculus with 7 samples.

Results

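The genes described here are 37 markers and effectors of microglia and other macrophages, chosen by name from a table of 54532 genes in mouse eye tissue. The choice was made with earlier results of these data known. By known role they form 7 homeostatic genes, 13 pan-myeloid genes, 11 activation genes, 4 broadly expressed lysosome genes and 2 ligands of the main survival receptor. Messenger RNA was sequenced in 3 knockout, 2 heterozygous and 2 wildtype libraries for Agbl5, the gene of CCP5, which trims glutamate branches from tubulin, and the series set out to learn what it does in photoreceptors. All groups carried the tissue label eyeball, while the extraction text spoke of retina. The kind of knockout allele, the strain and the age of the mice are not given in the sources used here. The labels do not say that the libraries of a genotype came from separate animals, so p-values measure the spread between these libraries, which may be partly technical.

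Levels are FPKM, fragments per kilobase of exon scaled by library size. They rested on 12238268 to 14327633 recovered reads per library, and a single read per kilobase of exon was worth 0.0663 to 0.0766 FPKM. Agbl5 had 1.53, 1.73 and 1.26 FPKM in knockout, 4.21 and 5.34 FPKM in heterozygous and 9.89 and 8.56 FPKM in wildtype libraries, and fell in knockout against wildtype by 2.03 ± 0.13 on the log2 scale (SE; limma, adjusted p = 0.00406). Rod genes marked all 7 libraries as holding retina. Lens transcripts set 2 libraries apart: Cryaa, a lens crystallin, stood at 2541 FPKM in knockout 1 and 1733 FPKM in heterozygous 1, and at 1.11 to 12.3 FPKM in the other 5. Xist and the Y-linked gene Ddx3y marked knockout 3 and wildtype 2 as female and the other 5 libraries as male.

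Microglia are the resident macrophages of the retina and brain. They live on signals through the receptor CSF1R, survey the tissue with purine and chemokine receptors that mark their homeostatic state, and clear debris and dying cells. When photoreceptors degenerate, microglia are known to multiply, to move into the outer retina and to raise genes of phagocytosis, lysosomes and lipid handling, among them Trem2, Tyrobp and cathepsins. Macrophages of blood vessels, ciliary body and meninges, and monocytes that enter from blood, share many of these transcripts.

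Many transcripts carried mainly by microglia stood higher in every knockout library than in every control library, among them 6 of the 7 homeostatic and 7 of the 13 pan-myeloid genes, but few of these differences passed a test across all genes. The 4 broadly expressed lysosome genes differed by less. For 3 of them every knockout library lay above both wildtype libraries, and for 0 above every control. Among 4 genes a count of 0 is near the share of all genes given below and does not set them apart. Of 22 further lysosome genes, 6 had every knockout library above every control, beside 4.72% of all genes. The members were chosen with earlier results of these data known, so these counts and those that follow are descriptions and not an independent test. For 22 of the 37 members every knockout library lay above both wildtype libraries, against 10.7% of the 33081 genes with any value above 0. For 0 members every knockout library lay below, which 10.1% of all genes showed. Set against all 4 control libraries, heterozygous and wildtype pooled, 16 of the 37 members had every knockout library on top and 0 had every one below, against 4.72% and 3.8% of all genes. These shares rise with expression, to 5.66% and 4.86% of genes averaging 0.1 FPKM or more and 6.75% and 6.26% of those averaging 1 FPKM or more. Against wildtype alone they were 13.5% and 14.7% at 1 FPKM or more. Shares quoted below are those of all 33081 genes. The median ratio of knockout to wildtype mean FPKM was 1.72 over the homeostatic genes, 1.92 over the pan-myeloid genes, 1.31 over the activation genes and 1.17 over the lysosome genes. After rescaling each library to a common sum (TPM), which shifted the median gene by -0.16 on the log2 scale for knockout against wildtype, the counts were 16 members against wildtype and 11 against all controls, beside 4.24% and 1.75% of all genes. On that scale the members that no longer separated from all controls were P2ry12, Tmem119, P2ry13, Gpr34 and Selplg, all homeostatic, while Cx3cr1 still did. In such bulk tissue, more microglia and more RNA per microglial cell cannot be told apart.

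**Figure D1:**
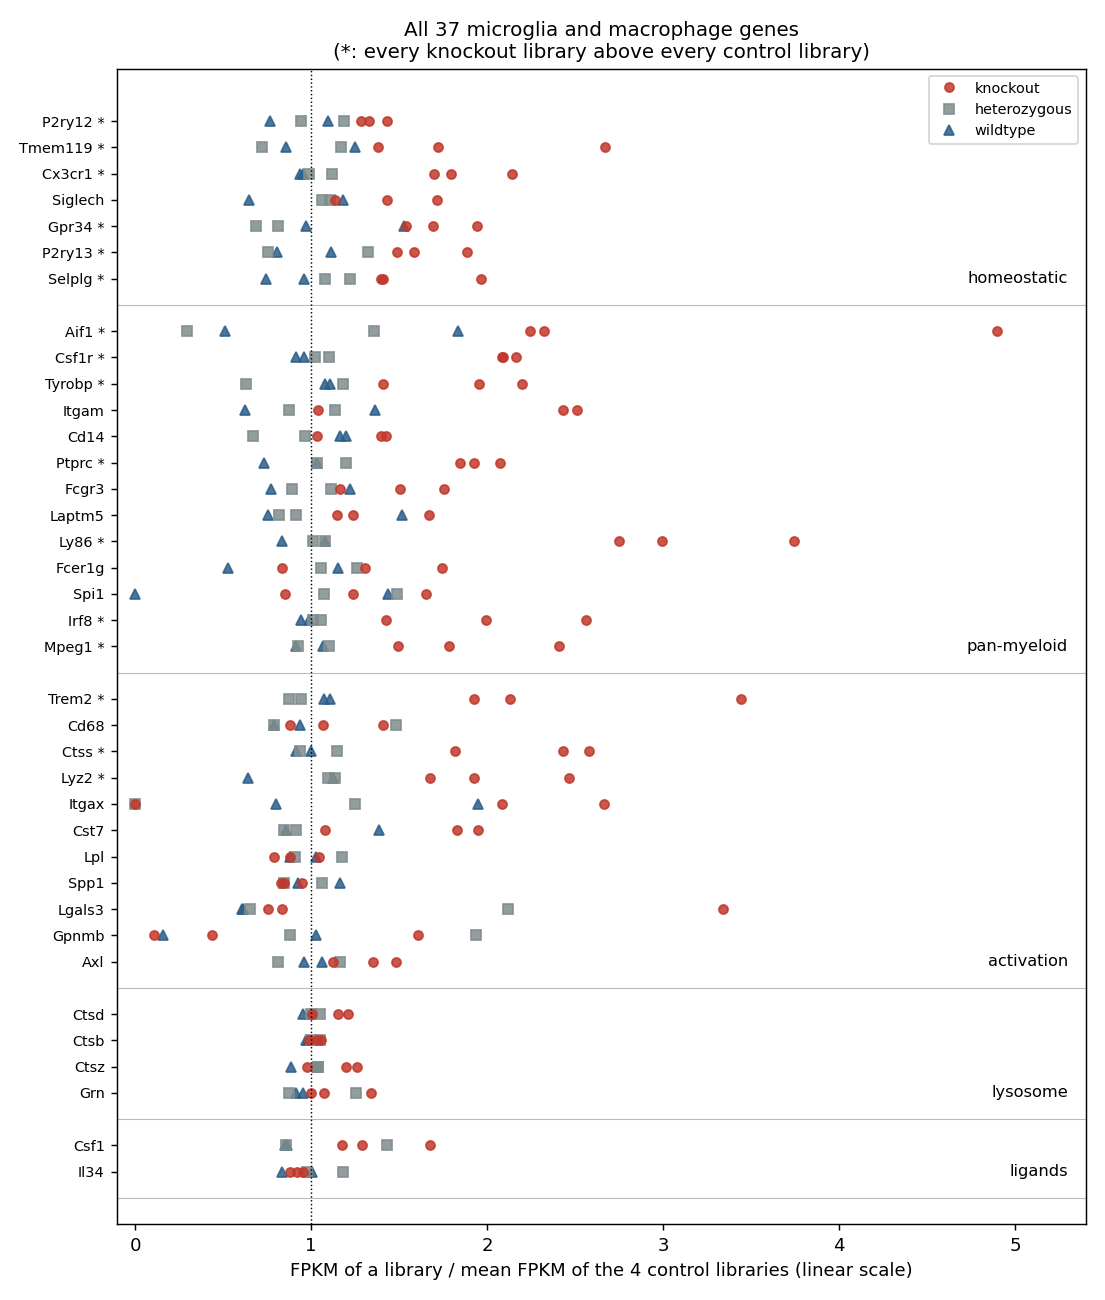
Each library's FPKM of the 37 members divided by the mean FPKM of the 4 control libraries (linear axis, dotted line at 1), by genotype and role; a star marks the 16 members whose knockout libraries all lay above every control library. Stars mark 6 of the 7 homeostatic, 7 of the 13 pan-myeloid and 3 of the 11 activation genes, and the lysosome genes stay close to the line.

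Tests across all genes were made with limma on log2(FPKM + 1), restricted to the 15472 genes averaging 1 FPKM or more, with an adjusted p of 0.05 as the threshold. Only 21 of the 37 members reached that level and 16 did not. The members next to the limit were Tmem119 and Laptm5 below it, with means of 0.768 and 0.825 FPKM, and Fcgr3 and P2ry12 above it, with 1.01 and 1.21 FPKM. Against wildtype, 1 of the 21 members was called, Csf1r, where 0.323% of all genes tested were called in either direction and 0.265% as higher. Against all 4 controls, 2 members were called higher, Csf1r and Ctss, beside 0.614% of all genes in either direction and 0.465% as higher. Against the heterozygous libraries alone, Csf1r was the 1 member called, beside 0.317% of all genes in either direction and 0.271% as higher. The median log2 difference of the 21 members was 0.29 when knockout was set against wildtype and 0.26 when it was set against all controls, where the medians of all genes were -0.00 and 0.00. These comparisons share their knockout libraries and, in part, their controls.

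Csf1r, the receptor tyrosine kinase on which microglia depend for survival, rose in knockout libraries, with a ratio of mean FPKM of 2.26 over wildtype. It lies on the plus strand of chromosome 18, between 61100598 and 61132149 in GRCm38, with 24 merged exons over 5774 bases. Csf1r had 4.86, 4.88 and 5.04 FPKM in knockout, 2.57 and 2.38 FPKM in heterozygous and 2.13 and 2.24 FPKM in wildtype libraries. All 3 knockout libraries stood at about the same level, far above the 4 controls, which lay close together. The log2 difference was 0.90 ± 0.08 against wildtype (SE; limma, adjusted p = 0.0119), 0.77 ± 0.08 against heterozygous (adjusted p = 0.0201) and 0.83 ± 0.07 against all controls (adjusted p = 0.00211). Without any 1 of the 3 knockout or 2 wildtype libraries the difference against wildtype lay between 0.87 and 0.92 but no longer passed, with adjusted p from 0.0672 to 0.144 in limma. The difference against heterozygous was lost without any 1 of the 7 libraries, at 0.73 to 0.81 with adjusted p from 0.0666 to 0.112, whereas that against all controls passed without each of the 7 in turn. On the TPM scale the difference against wildtype was 0.93 ± 0.14 and did not pass (SE; limma, adjusted p = 0.0647). The exons of Csf1r share 873 bases with Hmgxb3 on the opposite strand, and the library kit does not mark strand. Hmgxb3 itself had 9.17, 8.57 and 8.62 FPKM in knockout, 8.15 and 8.44 FPKM in heterozygous and 8.24 and 8.42 FPKM in wildtype libraries.

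The 2 ligands of that receptor did not pass the test. Csf1, a growth factor for macrophages made by many cell types, had 1.76, 1.36 and 1.23 FPKM in knockout, 1.5015 and 0.899 FPKM in heterozygous and 0.906 and 0.892 FPKM in wildtype libraries. Its knockout libraries all lay above wildtype, but heterozygous 1, one of the lens-rich libraries, lay among them (log2 difference against wildtype 0.36 ± 0.17, SE; limma, adjusted p = 0.736). Il34, the ligand that neurons supply, had 4.17, 4.02 and 3.84 FPKM in knockout, 4.26 and 5.16 FPKM in heterozygous and 4.40 and 3.66 FPKM in wildtype libraries. The genotypes overlapped, and the difference from wildtype was -0.00 ± 0.11 (SE; limma, adjusted p = 0.998).

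Adaptors and receptors that signal through immune tyrosine motifs split into some that separated the genotypes and some that did not. Tyrobp, the adaptor DAP12 that carries the signal of TREM2, had 2.61, 3.61 and 4.06 FPKM in knockout, 1.17 and 2.18 FPKM in heterozygous and 2.05 and 1.99 FPKM in wildtype libraries. Every knockout library lay above every control, yet the spread among knockout libraries was wide and the difference of 0.54 ± 0.21 against wildtype did not pass (SE; limma, adjusted p = 0.627). Trem2, the receptor for lipids and apolipoproteins that needs that adaptor, stood below the level tested, at 0.504, 0.559 and 0.902 FPKM in knockout, 0.229 and 0.248 FPKM in heterozygous and 0.290 and 0.282 FPKM in wildtype libraries. In recovered reads that was 133 over the 3 knockout libraries and 74 over the 4 controls, and the lowest knockout library held 33 reads where the highest control held 21. Fcer1g, the gamma chain shared by Fc receptors, had a mean of 3.65 ± 1.29 FPKM in knockout (SD, n = 3), 3.27 ± 0.413 FPKM in heterozygous and 2.37 ± 1.26 FPKM in wildtype libraries (n = 2 each). Fcgr3, a low-affinity receptor for immunoglobulin G, averaged 1.24 ± 0.248 FPKM in knockout, 0.844 ± 0.133 FPKM in heterozygous and 0.837 ± 0.265 FPKM in wildtype libraries. For both Fc receptor genes the genotypes overlapped and the tests did not pass, with log2 differences against wildtype of 0.48 and 0.29 (limma, adjusted p = 0.788 and 0.782).

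Other genes found across the myeloid lineage followed the pattern of Csf1r in part. Mpeg1, which encodes the pore-forming protein perforin-2 of macrophages, had 2.25, 3.04 and 1.89 FPKM in knockout, 1.39 and 1.17 FPKM in heterozygous and 1.15 and 1.35 FPKM in wildtype libraries. Its knockout libraries lay above all controls, but the difference of 0.58 ± 0.17 against wildtype did not pass (SE; limma, adjusted p = 0.472). Ly86, which encodes MD-1, a partner of the Toll-like receptor homologue RP105, had the widest ratio of the members, 3.31 for knockout over wildtype mean FPKM. Its level was 0.812, 1.01 and 0.745 FPKM in knockout, 0.292 and 0.274 FPKM in heterozygous and 0.226 and 0.292 FPKM in wildtype libraries, from 128 reads over the knockout libraries and 56 over all controls. Because it stood below 1 FPKM it was not in the main test. In an alternative added after the data were seen, voom on recovered reads for genes averaging 0.1 FPKM or more, Ly86 was called against all controls, with a log2 difference of 1.63 ± 0.27 (SE; limma with voom, adjusted p = 0.0122), where 0.517% of the genes in that fit were called higher.

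The remaining pan-myeloid members were sparse. Irf8, a transcription factor of the myeloid lineage, had 0.493, 0.352 and 0.632 FPKM in knockout, 0.261 and 0.250 FPKM in heterozygous and 0.233 and 0.244 FPKM in wildtype libraries, with every knockout library on top. Aif1, the gene of IBA1, the usual stain for microglia, had only 8, 18 and 8 reads in knockout, 5 and 1 reads in heterozygous and 7 and 2 reads in wildtype libraries, or 0.382 to 0.833 FPKM in knockout and 0.050 to 0.312 FPKM in controls. The lowest knockout library thus exceeded the highest control by a single read. Ptprc, the leukocyte surface phosphatase CD45, also lay above all controls, at 0.103 to 0.116 FPKM in knockout and 0.0411 to 0.0669 FPKM in control libraries. Spi1, which encodes the transcription factor PU.1, had 22 reads over the 3 knockout and 24 over the 4 control libraries, with 0 in wildtype 2, and the genotypes overlapped. Itgam, an integrin chain, and Cd14, a co-receptor for bacterial lipopolysaccharide, overlapped too, at 0.0903 to 0.218 FPKM in knockout and 0.0544 to 0.119 FPKM in controls for Itgam, and at 0.676 to 0.930 FPKM in knockout and 0.439 to 0.783 FPKM in controls for Cd14. Itgam shares 3450 of its 5024 exon bases with the gene model Gm49368 on the same strand, listed at 0 in all 7 libraries, so its level is uncertain. Laptm5, a lysosomal membrane protein of blood cells, overlapped as well, since wildtype 2 with 1.09 FPKM stood above 2 of the 3 knockout libraries, which ran from 0.823 to 1.20 FPKM. In all, 7 of the 13 pan-myeloid genes had every knockout library above every control library, and 0 had every one below, beside 4.72% and 3.8% of all genes.

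**Figure D2:**
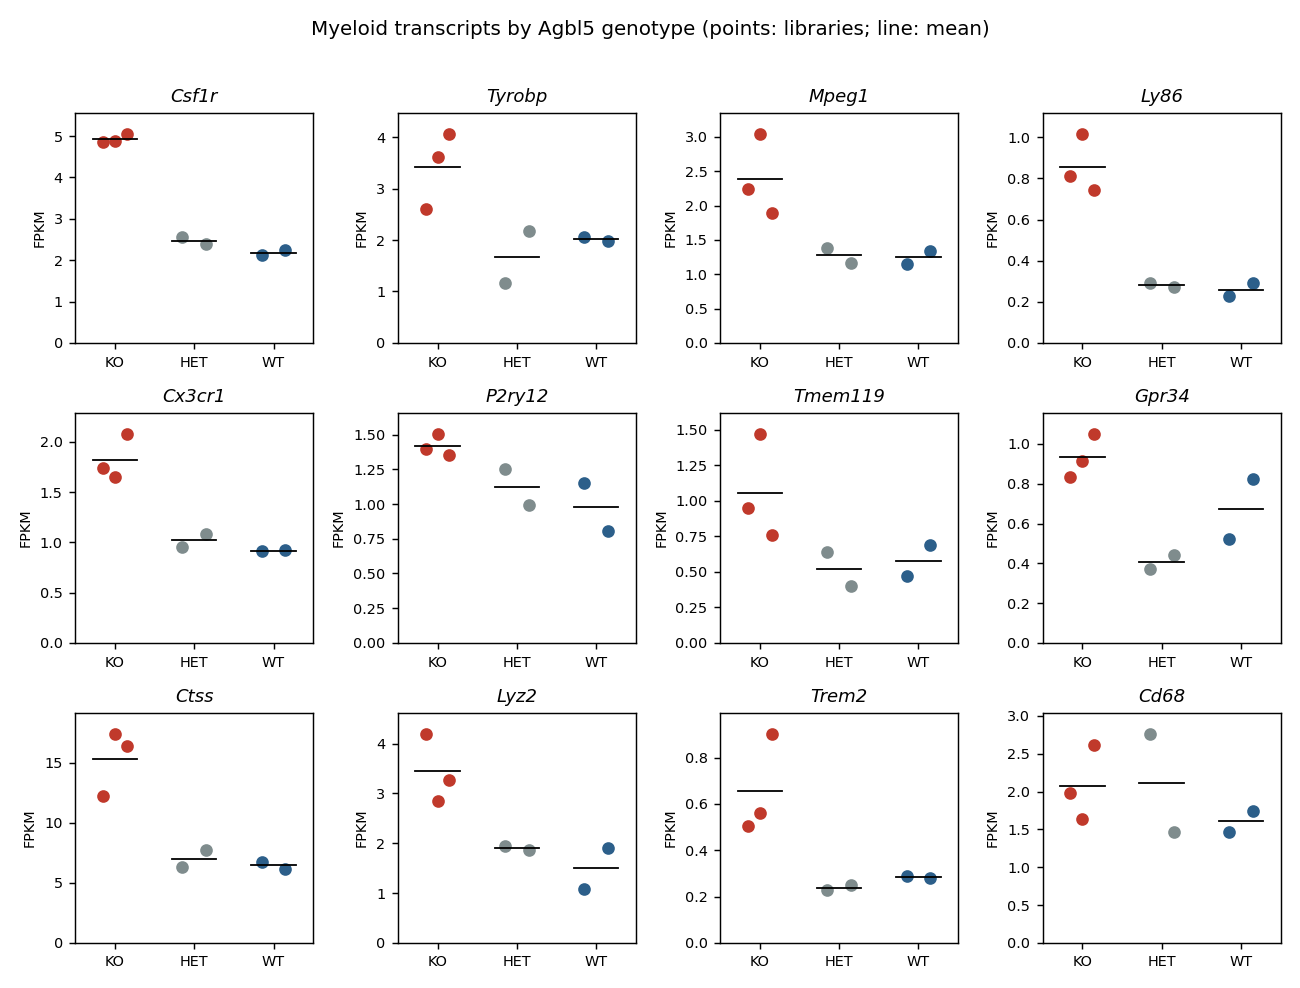
FPKM of 12 members in each library (points, with a line at the mean) in knockout (KO), heterozygous (HET) and wildtype (WT) libraries; every axis starts at 0. Knockout points lie above all control points for each gene but Cd68, and the 3 knockout points of Csf1r lie closest together.

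PU.1 is known as a master regulator of the myeloid lineage and binds purine-rich sites with the core GAGGAA. That core was looked for, on both strands, in the 250 bases before the start of each gene, with sequences from RefSeq on GRCm38.p6. It occurred in 12 of the 27 members in the table of promoters, 44.4%, and in 25.9% of 27025 genes. Of the 11 such members whose knockout libraries lay above all controls, 5 held it (45.5%). The longer form GAGGAAGT, which contains the core, was in 1 of the 27 members (3.70%), Spp1, and in 2.79% of all genes. A match is a run of letters and not a measured site. Shown are the windows of 4 members that separated the genotypes and hold 1 match each, with the match, or its reverse complement, in capitals. They lie at chr3:95526536-95526785, plus strand, for Ctss, chr17:48346151-48346400, plus strand, for Trem2, chr17:35176053-35176302, minus strand, for Aif1 and chr3:59210883-59211132, minus strand, for P2ry13.
Ctss: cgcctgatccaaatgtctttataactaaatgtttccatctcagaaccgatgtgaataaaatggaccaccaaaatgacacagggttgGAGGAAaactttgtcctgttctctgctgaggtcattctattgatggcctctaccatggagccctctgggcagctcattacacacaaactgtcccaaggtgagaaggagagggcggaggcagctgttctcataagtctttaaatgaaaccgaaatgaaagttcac
Trem2: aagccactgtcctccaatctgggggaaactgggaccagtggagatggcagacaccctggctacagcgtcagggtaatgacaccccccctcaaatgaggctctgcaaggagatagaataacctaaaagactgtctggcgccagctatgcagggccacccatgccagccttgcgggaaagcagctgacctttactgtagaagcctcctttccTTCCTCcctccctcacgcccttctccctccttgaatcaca
Aif1: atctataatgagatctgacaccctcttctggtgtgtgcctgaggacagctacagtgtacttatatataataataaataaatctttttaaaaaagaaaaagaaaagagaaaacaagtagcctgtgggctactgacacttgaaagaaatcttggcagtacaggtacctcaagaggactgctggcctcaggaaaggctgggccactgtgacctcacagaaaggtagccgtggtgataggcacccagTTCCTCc
P2ry13: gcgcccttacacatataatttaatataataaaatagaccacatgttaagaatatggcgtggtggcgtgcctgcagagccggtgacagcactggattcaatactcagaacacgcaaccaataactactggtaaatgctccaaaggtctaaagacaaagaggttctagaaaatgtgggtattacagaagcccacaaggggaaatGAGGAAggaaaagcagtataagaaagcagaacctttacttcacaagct
The match begins 164 bases before the start in Ctss, 40 in Trem2, 7 in Aif1 and 48 in P2ry13, read along the strand of the gene.

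Homeostatic genes, which microglia are known to lower on activation, were not lower in knockout libraries. Cx3cr1, the receptor for the neuronal chemokine fractalkine, had 1.75, 1.65 and 2.08 FPKM in knockout, 0.959 and 1.09 FPKM in heterozygous and 0.911 and 0.927 FPKM in wildtype libraries. All knockout libraries lay well above the controls, from 104 to 128 reads in knockout and from 60 to 64 in controls. The difference was 0.55 ± 0.13 against wildtype (SE; limma, adjusted p = 0.316) and 0.52 ± 0.10 against all controls (adjusted p = 0.109), which did not pass. With voom on recovered reads, planned as an alternative, the difference against all controls was 0.91 ± 0.16 and passed (SE; limma with voom, adjusted p = 0.0167), where 0.778% of all genes in that fit were called higher. Against wildtype voom gave 0.98 ± 0.20, which did not pass (adjusted p = 0.0860). Of 20 alternatives, Cx3cr1 was called in 2 against all controls, each with voom, and in 0 against wildtype.

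P2ry12, the ADP receptor that steers microglial processes, had 1.396, 1.503 and 1.350 FPKM in knockout, 1.251 and 0.993 FPKM in heterozygous and 1.155 and 0.807 FPKM in wildtype libraries. Knockout libraries were highest, by a small margin over heterozygous 1, and the difference against wildtype was 0.29 ± 0.14 (SE; limma, adjusted p = 0.736). Tmem119, a membrane protein used to tell microglia from other macrophages, had 0.947, 1.47 and 0.758 FPKM in knockout, 0.642 and 0.397 FPKM in heterozygous and 0.473 and 0.687 FPKM in wildtype libraries. The lowest knockout library held 24 reads, as many as wildtype 2, so the gap between them rests on library size. The other homeostatic members, below 1 FPKM, were the lectin Siglech, the purine receptor P2ry13, the lysophosphatidylserine receptor Gpr34 and the selectin ligand Selplg. Knockout libraries lay above all controls for P2ry13 (0.598 to 0.757 FPKM against 0.303 to 0.532 FPKM), for Selplg (0.814 to 1.14 FPKM against 0.432 to 0.713 FPKM) and for Gpr34 (0.832 to 1.05 FPKM against 0.373 to 0.825 FPKM), but not for Siglech (0.581 to 0.880 FPKM against 0.333 to 0.606 FPKM). In reads these margins were narrow. For P2ry13 and Selplg knockout 1 held 20 and 46 reads and heterozygous 1 held 19 and 43. For Gpr34 knockout 1 held 23 reads, fewer than the 26 of wildtype 2, so that gap rests on library size. Thus 6 of the 7 homeostatic genes had every knockout library above every control in FPKM and 0 had every one below, beside 4.72% and 3.8% of all genes. On the TPM scale Cx3cr1 still separated, while P2ry12, Tmem119, P2ry13, Gpr34 and Selplg overlapped controls.

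Summed over their genes, the homeostatic set had 6.91, 8.32 and 7.43 FPKM in knockout, 5.01 and 4.42 FPKM in heterozygous and 4.42 and 4.58 FPKM in wildtype libraries, a ratio of means of 1.68 for knockout over wildtype. The pan-myeloid set had 20.1, 19.2 and 20.2 FPKM in knockout, 12.1 and 11.4 FPKM in heterozygous and 10.3 and 12.1 FPKM in wildtype libraries, a ratio of 1.77. Within a library the homeostatic sum was 0.344 to 0.435 of the pan-myeloid sum in knockout and 0.378 to 0.431 of it in controls, and the genotypes overlapped. Set against Csf1r of the same library, Cx3cr1 overlapped too, at 0.339 to 0.412 in knockout and 0.374 to 0.457 in controls. P2ry12 did not: its level was 0.287, 0.308 and 0.268 of that of Csf1r in knockout, 0.488 and 0.417 in heterozygous and 0.543 and 0.360 in wildtype libraries. Every knockout library was thus lower than every control in the ratio of P2ry12 to Csf1r. No test was made of these ratios, which were picked out of 9 after their values were seen.

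Among activation genes, every knockout library lay above every control for Ctss, Lyz2 and Trem2, and Ctss passed the test against all controls. Ctss, a lysosomal protease that antigen-presenting cells use and that microglia express strongly, had 12.2, 17.4 and 16.4 FPKM in knockout, 6.31 and 7.73 FPKM in heterozygous and 6.75 and 6.15 FPKM in wildtype libraries. The knockout libraries lay far above the controls, although knockout 1 was lower than the other two. It lies on chromosome 3, 95526786 to 95556403 on the plus strand. Ctss rose against all controls by 1.07 ± 0.12 (SE; limma, adjusted p = 0.0118). The differences of 1.12 ± 0.16 against wildtype and 1.02 ± 0.16 against heterozygous did not pass (adjusted p = 0.0677 and 0.0946). With voom on recovered reads they were 1.24 ± 0.19 and 1.12 ± 0.19 and passed (SE; limma with voom, adjusted p = 0.0208 and 0.0365), where 0.392% and 0.406% of all genes in that fit were called higher. With lens level as a covariate they passed as well (limma, adjusted p = 0.0120 and 0.0184), where 25 and 34 of 15472 genes were called higher. Of 20 alternatives, Ctss was called in 5 against wildtype and in 4 against heterozygous. Under TPM, the replicate block and red blood cell level as a covariate neither difference passed. Without knockout 2 or knockout 3 the difference against all controls was 0.98 or 1.02 and did not pass (limma, adjusted p = 0.0575 and 0.0623), and without knockout 1 that against wildtype was 1.26 and passed (adjusted p = 0.0355).

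Lyz2, the lysozyme of macrophages, had 4.19, 2.85 and 3.28 FPKM in knockout, 1.94 and 1.86 FPKM in heterozygous and 1.09 and 1.91 FPKM in wildtype libraries. Knockout libraries were all above the controls, with differences of 0.84 ± 0.19 against wildtype and 0.72 ± 0.16 against all controls that did not pass (SE; limma, adjusted p = 0.290 and 0.145). Cd68, a lysosomal membrane glycoprotein widely used as a sign of phagocytic microglia, did not separate the genotypes. It had 1.98, 1.64 and 2.62 FPKM in knockout, 2.76 and 1.46 FPKM in heterozygous and 1.47 and 1.74 FPKM in wildtype libraries, and its highest value was in heterozygous 1.

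Genes of the lipid-handling state that microglia take on near damage were mixed. Cst7, an inhibitor of cysteine proteases, ran from 0.593 to 1.07 FPKM in knockout and from 0.466 to 0.763 FPKM in controls, on 8 to 14 and 6 to 11 reads, and overlapped. Itgax, the integrin CD11c, was at or near the limit of detection, with 11 reads over the knockout and 10 over the control libraries and 0 in knockout 3 and heterozygous 2. Axl, a receptor for Gas6 and protein S in the uptake of dying cells, averaged 4.91 ± 0.672 FPKM in knockout (SD, n = 3), 3.68 ± 0.922 FPKM in heterozygous and 3.76 ± 0.278 FPKM in wildtype libraries (n = 2 each). It lay above wildtype but not above all controls, and the difference of 0.31 ± 0.15 against wildtype did not pass (SE; limma, adjusted p = 0.736). Lpl, a lipoprotein lipase, and Spp1, osteopontin, which retinal neurons and other cells express as well, had the lower means in knockout. Lpl averaged 2.02 ± 0.286 FPKM in knockout and 2.13 ± 0.231 FPKM in wildtype libraries, and Spp1 6.93 ± 0.523 FPKM in knockout and 8.27 ± 1.33 FPKM in wildtype libraries. Neither passed (limma, adjusted p = 0.948 and 0.780). Spp1 shares 309 of its 1648 exon bases with the gene model Gm42793 on the same strand, listed at or under 0.0604 FPKM. In sum, 3 of the 11 activation genes had every knockout library above every control, and 0 had every one below, beside 4.72% and 3.8% of all genes.

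Gpnmb and Lgals3 varied widely among the knockout and among the heterozygous libraries. Gpnmb, a glycoprotein of phagocytes that pigment cells also make, had 17.7, 1.18 and 4.82 FPKM in knockout, 21.3 and 9.68 FPKM in heterozygous and 1.72 and 11.3 FPKM in wildtype libraries. The 7 libraries fell in the same order for Gpnmb as for Tyrp1, an enzyme of melanin synthesis, which had 27.2, 2.28 and 7.89 FPKM in knockout, 39.6 and 13.9 FPKM in heterozygous and 2.88 and 18.9 FPKM in wildtype libraries. The ratio of Gpnmb to Tyrp1 stayed between 0.515 and 0.650 in knockout and between 0.539 and 0.698 in control libraries. With the mean level of 13 pigment cell genes as a covariate, Gpnmb was lower in knockout than in all controls by a log2 difference of -0.68 ± 0.10 (SE; limma, adjusted p = 0.0478), where without it the difference was -0.61 ± 0.87 (adjusted p = 0.810). The covariate fit called 101 of 15472 genes. It was the only 1 of 20 alternatives that called Gpnmb against all controls, and 0 of 20 called it against wildtype.

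Lgals3, the lectin galectin-3, had 5.04, 1.14 and 1.26 FPKM in knockout, 3.20 and 0.990 FPKM in heterozygous and 0.920 and 0.928 FPKM in wildtype libraries. Its 2 high values were in the lens-rich libraries, knockout 1 and heterozygous 1, and the other 5 libraries lay close together. Csf1r did not follow the pigment gene: within the knockout group it was nearly the same in knockout 2, with 2.28 FPKM of Tyrp1, and in knockout 1, with 27.2 FPKM.

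**Figure D3:**
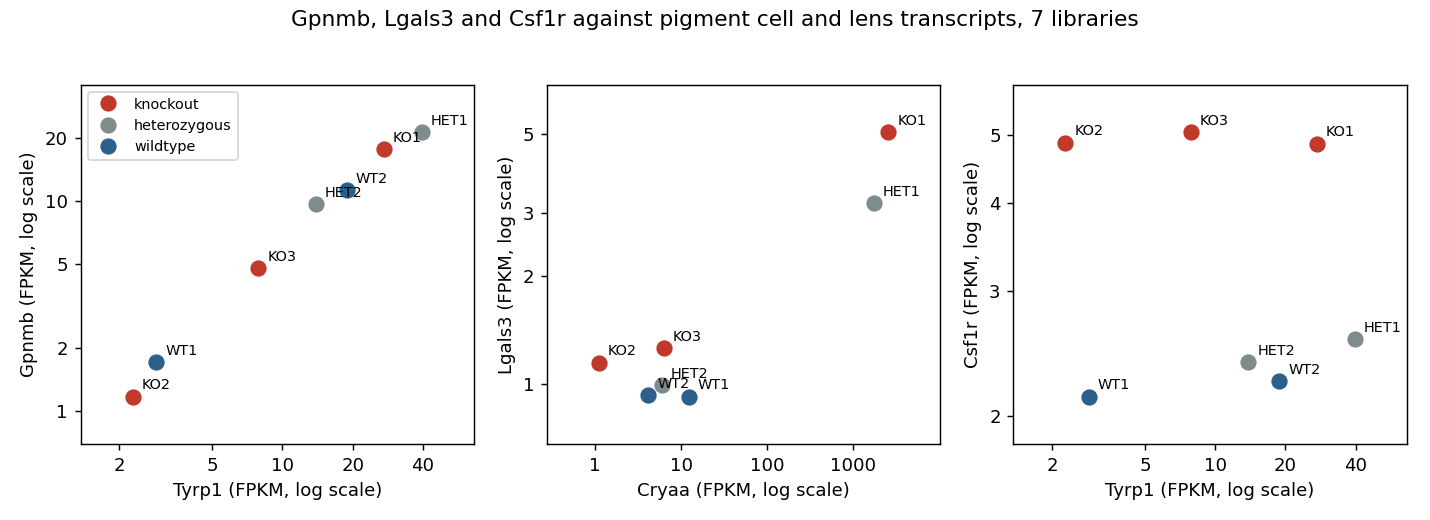
Gpnmb against the pigment cell gene Tyrp1 (left), Lgals3 against the lens gene Cryaa (middle) and Csf1r against Tyrp1 (right), in FPKM on log axes, 1 point per library. Gpnmb rises with Tyrp1 across genotypes, Lgals3 is high in the 2 lens-rich libraries, and Csf1r separates by genotype at any level of Tyrp1.

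Lysosome genes that most retinal cells express differed little. Ctsd, the aspartyl protease cathepsin D, averaged 85.1 ± 7.87 FPKM in knockout (SD, n = 3), 77.7 ± 2.66 FPKM in heterozygous and 73.8 ± 2.08 FPKM in wildtype libraries (n = 2 each). Ctsd shares 808 of its 2351 exon bases with the gene model Gm49369 on the same strand, so its level is uncertain. Gm49369 was listed at 0 in all 7 libraries. Ctsb, the cysteine protease cathepsin B, averaged 65.1 ± 2.14 FPKM in knockout, 64.8 ± 2.14 FPKM in heterozygous and 61.8 ± 0.417 FPKM in wildtype libraries. Ctsz, cathepsin Z, averaged 16.9 ± 2.17 FPKM in knockout, 15.3 ± 0.0116 FPKM in heterozygous and 14.1 ± 1.58 FPKM in wildtype libraries. Grn, the lysosomal regulator progranulin, averaged 11.9 ± 1.87 FPKM in knockout, 11.2 ± 2.81 FPKM in heterozygous and 9.81 ± 0.322 FPKM in wildtype libraries. Every knockout library lay above both wildtype libraries for 3 of these 4 genes but not for Ctsz, and for each of the 4 knockout overlapped the heterozygous libraries or wildtype. Log2 differences against wildtype of 0.07 to 0.25 did not pass (limma, adjusted p from 0.690 to 0.833). Of 22 further lysosome genes, such as those of membrane proteins and hydrolases, 22 were tested and 0 called against wildtype, with 7 at an unadjusted p under 0.05 and a median log2 difference of 0.13. Of all 15472 genes in that limma fit, 50 were called and 1160 had an unadjusted p under 0.05. Every knockout library lay above both wildtype libraries for 11 of these 22 genes and above every control for 6, beside 10.7% and 4.72% of all genes. For 0 of them every knockout library lay below both wildtype libraries or below every control, beside 10.1% and 3.8% of all genes. These too lay mostly on the higher side.

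Outside the 37 members, genes of complement C1q rose as well. Of 30 other genes typical of microglia 11 were tested against wildtype, and their median log2 difference was 0.30. Among these 11, 2 were called higher and 0 lower, where 0.265% of all genes tested were called higher. The 2 called genes of this list encode chains of C1q, the first component of the classical complement pathway, which microglia produce in the retina and brain. C1qb had 10.5, 9.97 and 8.87 FPKM in knockout, 4.49 and 4.86 FPKM in heterozygous and 4.71 and 5.18 FPKM in wildtype libraries, and rose by 0.86 ± 0.09 against wildtype (SE; limma, adjusted p = 0.0209). C1qc rose by 0.76 ± 0.09 (adjusted p = 0.0281), and C1qa, with a difference of 1.01 ± 0.18 against wildtype (adjusted p = 0.158), rose against all controls by 0.97 ± 0.14 (adjusted p = 0.0343). C1qb passed against all controls without each library in turn, but against wildtype it did not without knockout 1, knockout 2 or either wildtype library (limma, adjusted p from 0.101 to 0.224). The calls of C1qc against wildtype and of C1qa against all controls were lost without any 1 knockout or wildtype library, with adjusted p up to 0.282 and 0.173, and that of C1qa also without heterozygous 1. For 10 of the 30 genes every knockout library lay above every control library, beside 4.72% of all genes. The microglial transcription factor gene Sall1 and the secreted Olfml3 did not follow: both were highest in the 2 lens-rich libraries, with 1.18 and 1.20 FPKM of Sall1 in knockout 1 and heterozygous 1 and 0.204 to 0.525 FPKM in the other 5.

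Of 20 genes for partners and signalling of these receptors, 13 were tested and 0 called against wildtype, with 1 at an unadjusted p under 0.05 and a median log2 difference of 0.07. The same limma fit called 50 of all 15472 genes and gave 1160 an unadjusted p under 0.05. Cx3cl1, the ligand of CX3CR1, had 17.6 to 21.0 FPKM in knockout and 14.1 to 21.1 FPKM in control libraries. Cd200, a neuronal signal that restrains microglia, had 7.83 to 9.41 FPKM in knockout and 8.89 to 9.99 FPKM in control libraries. Apoe, a lipid carrier bound by TREM2, had 394, 323 and 330 FPKM in knockout, 222 and 300 FPKM in heterozygous and 305 and 235 FPKM in wildtype libraries, with every knockout library on top, but a difference of 0.38 ± 0.17 against wildtype that did not pass (SE; limma, adjusted p = 0.724). Of 14 chemokine and cytokine genes 1 reached the tested level, Cxcl16, which was not called (adjusted p = 0.797). The 14 genes summed to 6.40 to 7.76 FPKM in knockout and 5.50 to 5.98 FPKM in control libraries, a separation that was not tested. For 1 of the 14 every knockout library lay above every control, beside 4.72% of all genes. Ccl2, a chemokine that draws monocytes, was listed at 0.125 to 0.266 FPKM in the 3 knockout libraries and at 0 in all 4 controls. A single read per kilobase of exon was worth 0.0709 to 0.0756 FPKM in knockout libraries, so these values lie near the limit of detection. Il6 was listed at 0 in all 7.

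Summed markers of border macrophages, monocytes, neutrophils and lymphocytes overlapped between knockout and control libraries. Of 8 genes of perivascular and border macrophages, 1 was tested, Lyve1, with a log2 difference of -0.23 ± 0.12 against wildtype (SE; limma, adjusted p = 0.750). Their summed level was 5.74 to 6.38 FPKM in knockout and 5.996 to 10.03 FPKM in control libraries, and Cd163 was at or under 0.111 FPKM throughout. The 8 monocyte and neutrophil genes summed to 1.12 to 2.01 FPKM in knockout and 0.975 to 2.67 FPKM in control libraries, with Ccr2 and Mpo at 0 in every library but heterozygous 1, where they stood at 0.0209 and 0.0207 FPKM. The 8 lymphocyte genes summed to 0.276 to 1.15 FPKM in knockout and 0.220 to 0.716 FPKM in control libraries, with Cd3e and Cd2 at 0 in all 7.

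**Figure D4:**
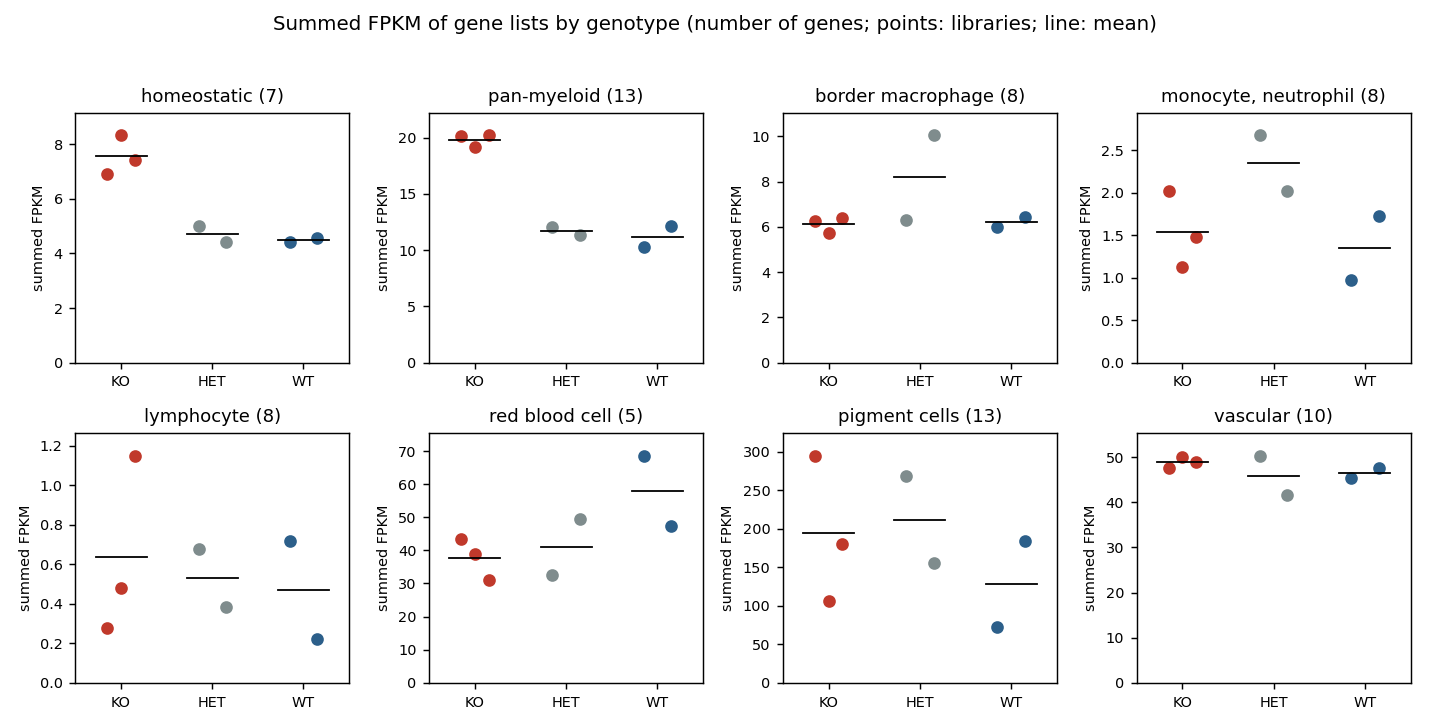
Summed FPKM of 8 gene lists in each library (points, with a line at the mean) in knockout (KO), heterozygous (HET) and wildtype (WT) libraries, with axes from 0. The homeostatic and pan-myeloid sums separate knockout from all controls, the border macrophage, monocyte, lymphocyte and vascular sums overlap, and the red blood cell sum is lower in knockout than in wildtype.

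Some transcripts of other cells moved with genotype as well, and their part in the differences was not tested beyond the covariate fits given here. The 8 rod genes summed to 8488 to 8620 FPKM in knockout and 9363 to 10540 FPKM in control libraries. For 7 of the 8 every knockout library lay below every control, beside 3.8% of all genes. Gfap, the filament gene that Müller glia raise under stress, had 20.1, 23.2 and 16.3 FPKM in knockout, 9.62 and 4.94 FPKM in heterozygous and 4.96 and 6.74 FPKM in wildtype libraries. The 5 red blood cell genes summed to 31.1 to 43.5 FPKM in knockout, 32.7 to 49.5 FPKM in heterozygous and 47.4 to 68.6 FPKM in wildtype libraries. With their mean level as a covariate the difference of Csf1r was 0.84 ± 0.11 against wildtype (SE; limma, adjusted p = 0.139) and 0.79 ± 0.07 against all controls (adjusted p = 0.00935). Without both lens-rich libraries Csf1r differed by 0.90 from wildtype (limma, adjusted p = 0.137) and by 0.88 from all controls (adjusted p = 0.0333), and Ctss by 1.26 and 1.19 (adjusted p = 0.0518 and 0.0205).

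Heterozygous libraries, whose Agbl5 level lay between the other genotypes, did not pass the test against wildtype for any of these genes. In heterozygous against wildtype, limma called 0 of the 21 members and 0% of all genes tested, with 0 members and 619 of the 15472 genes below 0.05 before adjustment, while voom called 0 of either. Csf1r differed by 0.13 ± 0.09 and Ctss by 0.10 ± 0.17 (SE; limma, adjusted p = 0.974 and 0.976). Both heterozygous libraries lay above both wildtype libraries for 9 of the 37 members and below for 3, where 13.7% and 12.5% of all genes did so. The median ratio of heterozygous to wildtype mean FPKM was 1.09, against 1.56 for knockout to wildtype.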

How the data were processed

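The authors deposited FPKM per gene and library. Per the submitters' processing notes, the builds were mm10 and GRCm38 and the tools HTSeq, DESeq, Bowtie2 2.0.6 and TopHat2 2.0.9; settings and annotation release are not given in the sources used here. Per the labels' protocols, polyadenylated RNA went into an unstranded NEBNext Ultra kit. Gene positions and merged exon lengths came from GENCODE M21. With those lengths 96.8% of values were whole reads within 0.01, and reads were recovered for 32117 genes, but not for Csf1r, Cd14 and Mpeg1.

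Members were matched by gene symbol. Values were analysed as log2(FPKM + 1), which understates fold changes of genes at low levels, for genes averaging 1 FPKM or more, with limma 3.58.1 in R 4.3.3 (empirical Bayes with trend, Benjamini-Hochberg over all genes, threshold 0.05). A fit of 3 genotypes gave the pairwise comparisons, with 4 residual degrees of freedom, and a fit of 2 groups gave knockout against all controls, with 5. The code was tested on simulated data. Alternatives were pseudocounts of 0.1 and 0.5, no filter, a mean of at least 0.1 FPKM, TPM, voom on recovered reads, a replicate block, each library left out, both lens-rich libraries left out, and lens, pigment, red blood cell or Y-linked level as a covariate. Voom for genes averaging 0.1 FPKM or more, and the counts of members without overlap under TPM or fewer libraries, were added after the data were seen. The members and lists were chosen with earlier results of these data known. Named were Agbl5, every member, and of other lists the called genes or those with the smallest p, with values per library for the members of chief interest and the 6 with the smallest p. A planned search of protein sequences was not done, since none were used here. The order of Gpnmb and Tyrp1, and Ly86, Sall1, Olfml3, Ccl2 and Il6, were picked out after their values were seen.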

Additional observations from a re-analysis of the deposited data

Results flagged for a closer look

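In each member, the highest and lowest of the 4 control libraries were compared with the rest, and 5 of 37 members had a library standing apart by Dixon's test at the 95% level, which chance alone gives in about 1 of 20. Lyz2 stood at 1.09 FPKM in wildtype 1, below the other controls, and Ctsz at 13.001 FPKM in the same library, also below. Cst7 stood at 0.763 FPKM in wildtype 1, above the other controls. In heterozygous 1, one of the 2 lens-rich libraries, Lgals3 stood at 3.20 FPKM and Csf1 at 1.5015 FPKM, both above the other controls.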

How the results depend on the processing

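Of 730 alternative values for members, C1q genes and Agbl5, 621 kept their direction and side of the threshold, 20 reversed, 75 no longer passed it and 14 newly passed. The cause of these changes was not tested. In knockout against wildtype, where 1 member was called, 0 were under TPM, the replicate block, without both lens-rich libraries and with red blood cell level as a covariate, 2 with lens or pigment level (Csf1r and Ctss), and 0 to 1 without each library in turn. In knockout against heterozygous, also with 1, 0 were called under no filter, TPM, the block, without lens-rich libraries and with pigment or Y-linked level, and 0 to 1 without each library. Against all controls, with 2 called, the block left 0 and leaving out each library gave 1 to 2. The lens covariate gave 3 members, all higher, with Tyrobp added, beside 94 of 15472 genes called. The pigment covariate gave 4 members, 3 higher and Gpnmb lower, beside 101 of 15472 genes.

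Over all genes, 50 were called in knockout against wildtype, against 28 under TPM, 77 under voom, 3 under the block, 3 without lens-rich libraries, and 28, 0 and 33 with lens, red blood cell and Y-linked level; without each library 5 to 53 were called. In knockout against heterozygous there were 49, against 76 under voom, 85 under voom at 0.1 FPKM, 0 under the block, 0 without lens-rich libraries and 14 to 40 without each library. In heterozygous against wildtype there were 0, against 19 with no filter and 0 to 3 without each library. Against all controls there were 95, against 63 under TPM, 150 under voom, 160 under voom at 0.1 FPKM, 38 under the block, 48 without lens-rich libraries and 45 to 90 without each library.

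Reversed differences against wildtype were never called. Gpnmb, at 0.10, was -0.073 under TPM, -0.70 without lens-rich libraries, and -0.41, -0.68 and -1.02 with lens, pigment and red blood cell level, and ran from -0.99 to 1.18 without each library; against all controls, where it was -0.61, it ran from -1.41 to 0.14. Il34, at -0.00, was 0.0010 under voom, 0.00095 under voom at 0.1 FPKM, 0.022 under the block, 0.0096, 0.032 and 0.19 with lens, pigment and red blood cell level, and -0.11 to 0.11 without each library. Lpl ran from -0.13 to 0.020 without each library, Ctsb was -0.089 under TPM and Cd68 -0.14 with red blood cell level.

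The labels do not say that replicate numbers pair libraries. Same-numbered libraries correlated in their deviations by -0.02 to 0.43, highest for the 2 lens-rich libraries, which with groups of 2 does not settle whether they are paired. TPM also shifted the median gene by -0.12 against all controls. Depth limits most of all the 16 members below 1 FPKM, several with under 10 reads a library.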
